A study of Mus musculus with 14 samples.

Results

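Embryonic fibroblasts are the cells from which induced pluripotent stem cells are commonly made, and here 1 mouse embryonic fibroblast (MEF) array was set against 2 arrays of iPSCs obtained by exposure to the 2i condition. The comparison asks which fibroblast programs were lost and which were kept in the converted cells. A gene was counted as different when its log2 value in MEFs was at least 1 above, or at least 1 below, that of both 2i arrays, which is a 2-fold difference. Of 12996 genes measured, 1645 were higher in MEFs (12.7%) and 2151 were lower in MEFs (16.6%), 3796 in all (29.2%). A further 8031 genes lay within 1 log2 of both 2i arrays (61.8%), and 1169 passed 1 against only one of them. With 1 MEF array there is no test of these differences, and the numbers describe these 3 arrays.

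The MEFs came from embryos of Nanog-GFP transgenic mice on the C57BL/6 strain, of mixed sex, and were grown without leukemia inhibitory factor (LIF). Their embryonic day is given as 12.5 in the sample title and as 13.5 in the text on the series. The 2i iPSCs were female C57BL/6 cells, 1 array from each of the partial iPSC clones 2B1 and 5C5 after exposure to 2i. As readouts that the MEF comparison did not use, the same clones as untreated partial iPSCs in LIF and serum (1 array each) and 2 male ESC lines (Nanog-GFP ESCs from C57BL/6 blastocysts and the wild-type 129sv line EBRTcH3, 1 array each) were taken in. The series holds 14 arrays, of which 7 are used. Within a group the values below are given in the order 2B1, 5C5 for the iPSCs and Nanog-GFP, EBRTcH3 for the ESCs. Each iPSC array stands for 1 clone and each ESC array for 1 line, so a spread within a group is a spread between clones or lines. The MEFs are a primary culture, and in bulk RNA fewer cells of a type and less RNA per cell cannot be told apart.

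As background, fibroblasts build and remodel connective tissue: they secrete collagens and other matrix proteins, cross-link and cleave them, contract through actin and myosin, and carry transcription factors of the mesenchyme and Hox genes that record their place in the body. Reprogramming to pluripotency replaces these programs with those of Nanog, Sox2, Pou5f1 and their partners. Partial iPSCs are cells stopped on that way, which grow like stem cells but lack much of the pluripotency network. The 2i condition is a pair of small-molecule inhibitors, of MEK and of GSK3, under which mouse cells can settle in the naive, ESC-like state.

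Marker genes were read first. The 4 fibroblast markers Igf2, a fetal growth factor, Myl9, a myosin light chain, Tagln, an actin-binding protein of contractile cells, and Fbln2, a matrix glycoprotein, were all higher in MEFs. Of these, Igf2, Myl9 and Tagln are among the 15 largest differences on that side, so their direction is no check of the labels. Igf2 had log2 values of 13.49 in MEFs, 5.75 and 5.78 in the 2i iPSCs, 5.48 and 5.78 in the partial iPSCs and 5.97 and 6.08 in the ESCs. Fbln2 had 13.31 in MEFs, 10.56 and 10.79 in the 2i iPSCs, 10.19 and 9.89 in the partial iPSCs and 6.01 and 5.19 in the ESCs. The first was at the level of the other cells in the 2i iPSCs, and the other was not. Nanog, the pluripotency factor by which such cells are commonly selected, had 3.72 in MEFs, 12.38 and 12.57 in the 2i iPSCs, 3.85 and 4.36 in the partial iPSCs and 13.12 and 12.54 in the ESCs, and Zfp42 (Rex1), a marker of naive cells, had 2.55 in MEFs, 12.69 and 12.26 in the 2i iPSCs, 2.57 and 2.38 in the partial iPSCs and 12.37 and 12.89 in the ESCs. Both were near the bottom of the scale in MEFs and in the partial iPSCs and high in the 2i iPSCs and the ESCs. The Y-linked gene Eif2s3y stood at 9.22 in MEFs and at 9.34 and 10.21 in the ESCs. It had 2.95 and 2.92 in the 2i iPSCs and 2.85 and 2.74 in the partial iPSCs. This only Y-linked gene among the 15 largest differences was thus high in the cells labelled male or of mixed sex and low in the female cells. Of 3 measured Y-linked genes, Eif2s3y was the 1 higher in MEFs, and the other 2 lay within 1 on the probe sets used. For Uty this depends on the probe set, as its other bright ones were higher in MEFs. One of them had 5.94 in MEFs and 2.97 and 2.52 in the 2i iPSCs. Kdm5d, not among the 3, had 6.10 in MEFs and 2.57 and 2.85 in the 2i iPSCs on a probe set not used. The count of 3 thus does not show that most Y-linked genes were alike.

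Markers of other cell types that an embryo culture can hold were then read. Of 15 macrophage and blood markers, 9 reached the median of the table in none of the 7 arrays, among them Ptprc, Adgre1 and the complement genes C1qa, C1qb and C1qc, while Lyz2, a lysozyme gene, had 7.97 in MEFs and 4.80 and 4.91 in the 2i iPSCs. The erythroid genes Hba-a1, Hba-x and Gata1 and the endothelial genes Cdh5, Tie1, Cldn5 and Erg were dim too. Of 15 skeletal muscle markers, 5 of 9 measured were higher in MEFs, with Acta1 at 10.78 in MEFs and 5.51 and 5.34 in the 2i iPSCs and Actc1 at 8.46 in MEFs and 4.36 and 4.55 in the 2i iPSCs, while Myod1, Myf5 and Pax7 were dim. Of 8 mesothelium markers, 5 of 7 measured were higher in MEFs and 1 was lower. Among the higher, Krt19 was at 9.08 in MEFs and 4.55 and 4.78 in the 2i iPSCs and Upk3b at 8.04 in MEFs and 5.09 and 4.87 in the 2i iPSCs. Of 4 measured adipocyte markers 3 were higher in MEFs and 0 lower. Of 12 neural markers 2 were higher and 4 lower, of 8 endothelial 2 and 3, of 6 macrophage and blood 1 and 2, of 9 cartilage and bone 1 and 3, of 5 keratinocyte 1 and 0, of 4 pericyte 1 and 0 and of 2 erythroid 0 and 0, against 12.7% higher and 16.6% lower over all genes. The part of such cells in the MEF values was not tested.

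**Figure D1:**
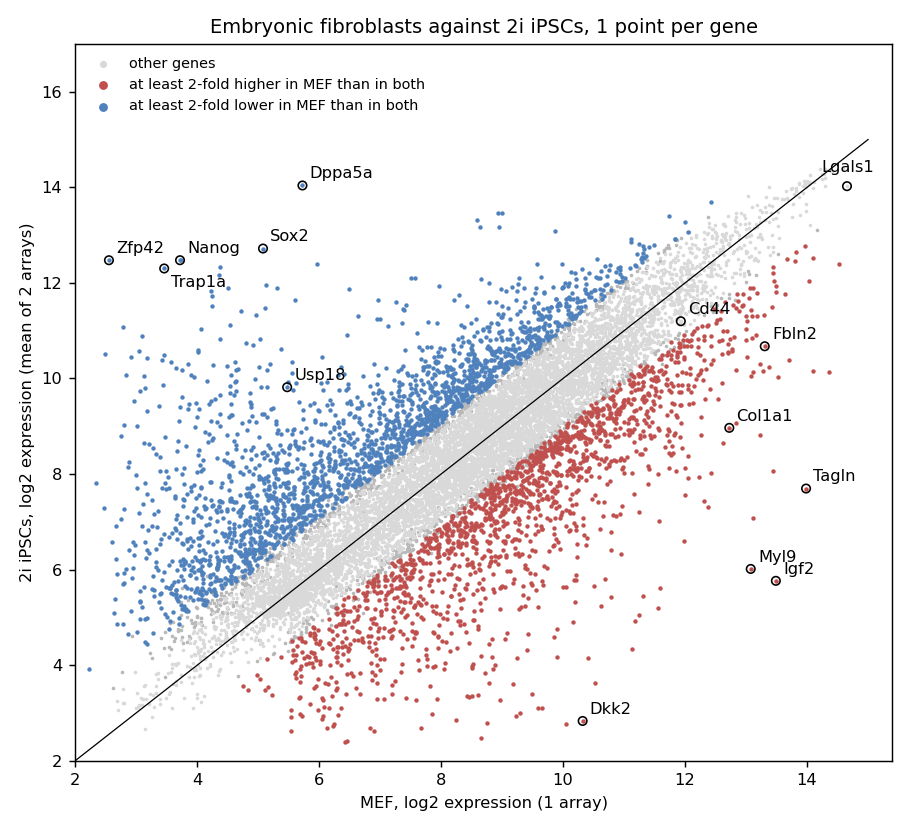
Log2 expression in MEFs (x axis, 1 array) against the mean of the 2 arrays of 2i iPSCs (y axis), 1 point per gene, with the line of equality. Red points are the 1645 genes higher in MEFs than in both 2i arrays by at least 1 log2 and blue points the 2151 genes lower in MEFs; Igf2 and Myl9 lie far below the line, Zfp42 and Nanog far above it, and Cd44 and Lgals1 near it.

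The differences ran to large sizes on both sides. Of the genes higher in MEFs, 585 passed 2, 214 passed 3 and 82 passed 4 on the log2 scale against both 2i arrays, and of those lower in MEFs, 719, 295 and 153 did. The higher genes had a median level of 9.32 in MEFs, 7.28 and 7.34 in the 2i iPSCs, 7.73 and 7.62 in the partial iPSCs and 6.36 and 6.29 in the ESCs. Values ran on across the threshold. The last gene inside on the higher side, Sec31a, differed by 1.0001, and the first outside, Slc10a3, by 0.9998. On the lower side Dcaf17 was the last inside and Mdm4, at 0.9997, the first outside. The 2i arrays themselves were close to each other, 2-fold apart in 240 genes (1.85%) with a median absolute difference of 0.167. In 221 of the 1645 higher genes the MEF array was the only one of the 7 that reached the median of the table, so these genes passed the filter only because they were high in MEFs. The dimmest values on such arrays are background, and a fold against them is that of the measured values.

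Genes called between partial iPSCs and ESCs were counted next. The group means of this comparison use none of the arrays behind the MEF difference, but its estimate of the spread takes in both 2i arrays. Over all genes, 1232 were higher (9.48%) and 773 lower (5.95%) in partial iPSCs than in ESCs (limma, adjusted p under 0.05). With every array centred on the median of the measured genes, the calls were 996 higher and 1063 lower, a share of higher calls of 48.4% against 61.4%. Of the 1645 genes higher in MEFs than in 2i iPSCs, 483 were also higher in partial iPSCs than in ESCs (29.4%) and 30 lower (1.82%). Of the 2151 genes lower in MEFs, 81 were higher (3.77%) and 464 lower (21.6%). The total was 2005 calls, against 764 with either 2i array left out of the fit or with the 4 compared arrays alone, and 1144 and 1307 without the partial array of 2B1 or of 5C5. The 483 genes became 230 without either 2i array and 302 without the partial array of 2B1.

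Of the gene lists, 12 lists described fibroblast programs, with 320 genes in all. The lists were chosen with earlier results of these data known, so their shares describe the chosen genes and test nothing. Of these, 268 were measured, 29 were dim in all 7 arrays and 23 had no probe set assigned to them alone. Of the 268, 184 were higher in MEFs (68.7%, against 12.7% of all genes), 9 were lower (3.36%, against 16.6% of all genes), 52 lay within 1 of both 2i arrays and 23 passed 1 against one array only. In 30 of the 184 only the MEF array reached the median of the table. The median difference, MEF minus the mean of the 2i arrays, was 1.91 over these genes and -0.08 over all genes. The median level was 9.65 in MEFs, 7.66 and 7.74 in the 2i iPSCs, 7.53 and 7.20 in the partial iPSCs and 5.77 and 5.37 in the ESCs. The 2i iPSCs thus stood between MEFs and ESCs in the median, close to the partial iPSCs.

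The 184 genes fell into 2 kinds by where the 2i arrays stood against the ESC arrays, a division chosen after the values were seen. In 96 of them neither 2i array was 1 log2 or more above the higher ESC array. In 80 both 2i arrays were at least 1 log2 above both ESC arrays (43.5%, against 20.3% of all 1645 genes higher in MEFs), and 8 were mixed. Among all 268 measured members, 110 had both 2i arrays at least 1 above both ESC arrays (41.0%, against 5.59% of all genes).

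**Figure D2:**
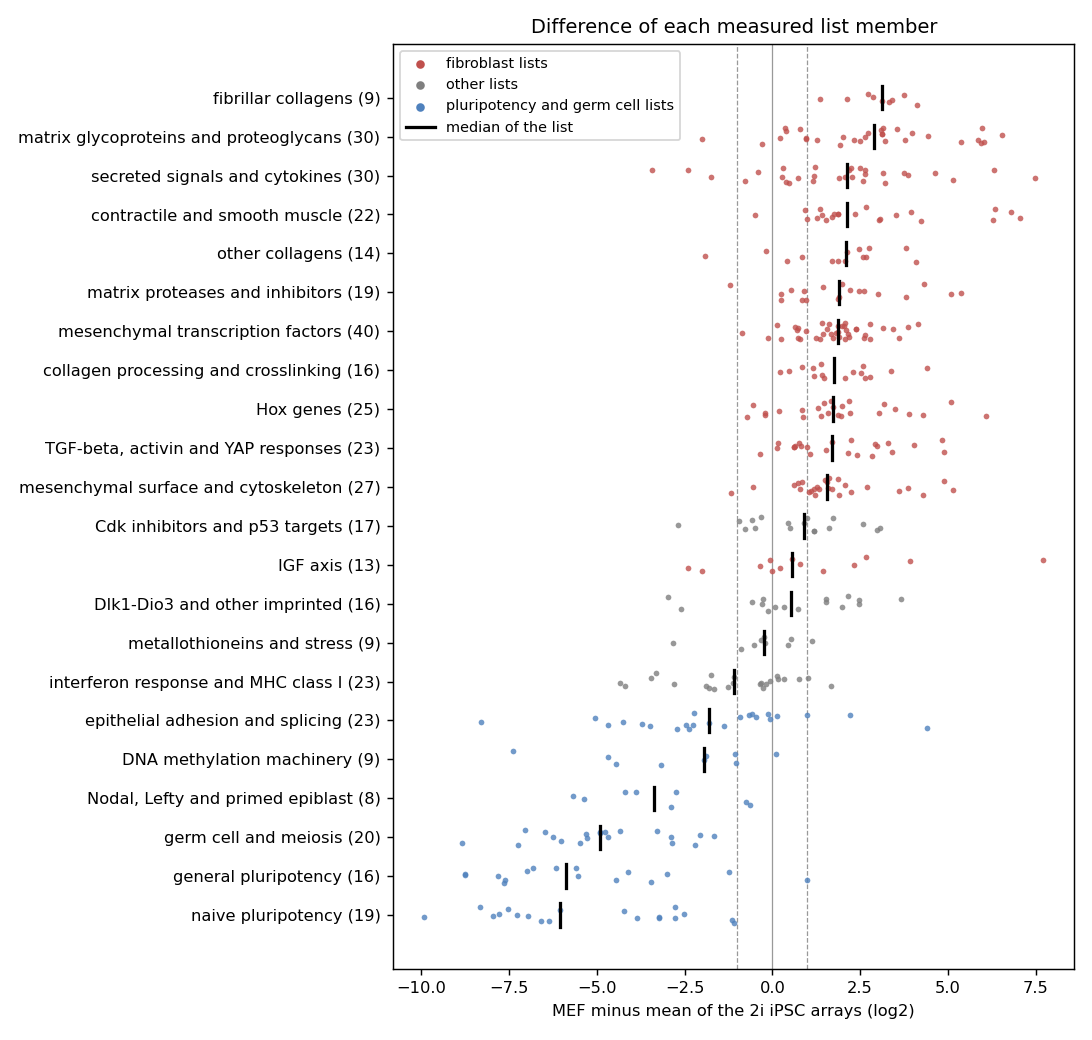
Difference in log2 expression, MEF minus the mean of the 2i iPSC arrays (x axis), for each measured member of 22 gene lists (y axis, number of measured members in brackets); points are genes, black bars list medians and dashed lines 1 log2 in either direction. Fibrillar collagens have the highest median, 3.13, and naive pluripotency genes the lowest, -6.05.

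Contractile genes higher in MEFs were near ESC level in the 2i iPSCs about as often as all genes higher in MEFs. Near is read against the higher ESC array, so a 2i value can still lie well above the lower one, as for Tagln below. Of 22 measured contractile and smooth muscle genes, 19 were higher in MEFs (86.4%, against 12.7% of all genes), 2 passed 1 against one array only, 1 lay within 1, and none was lower (16.6% of all genes). In 14 of the 19 the 2i arrays were not 1 log2 above the higher ESC array (73.7%, near the 75.2% of all genes higher in MEFs). Myl9 had log2 values of 13.08 in MEFs, 6.14 and 5.89 in the 2i iPSCs, 5.47 and 5.48 in the partial iPSCs and 6.96 and 3.81 in the ESCs. Both 2i arrays lay between the ESC lines, which were themselves far apart, and MEFs were 134-fold above the mean of the 2i arrays. Calponin 1 (Cnn1), which binds actin in smooth muscle, had 11.14 in MEFs, 4.25 and 4.43 in the 2i iPSCs, 4.49 and 3.93 in the partial iPSCs and 4.19 and 4.71 in the ESCs, and smooth muscle gamma actin (Actg2) had 11.56 in MEFs, 5.19 and 5.22 in the 2i iPSCs, 7.24 and 5.14 in the partial iPSCs and 4.36 and 4.54 in the ESCs. Tagln stood at 13.98 in MEFs, 7.64 and 7.76 in the 2i iPSCs, 7.35 and 7.62 in the partial iPSCs and 7.73 and 5.34 in the ESCs, a 78.1-fold difference between MEFs and the mean of the 2i arrays. In the fits against ESCs, 2 of the 22 genes were higher in partial iPSCs and 1 in 2i iPSCs (limma, adjusted p under 0.05), close to the shares of 9.48% and 3.56% over all genes. Csrp2, a LIM protein of smooth muscle, was the member within 1 of both, at 10.63 in MEFs and 11.50 and 10.76 in the 2i iPSCs. Myocd, which encodes the coactivator myocardin, and Myh11 were dim in all 7 arrays.

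The Myl9 promoter is shown because genes of smooth muscle are known to be driven through the CArG box, the site bound by serum response factor. The window is chr2:156775214-156775513 on the plus strand of GRCm38.p6, from 250 bases before to 50 after the annotated start (RefSeq), and the capitals mark the CArG box, which begins 161 bases before the start.
Myl9: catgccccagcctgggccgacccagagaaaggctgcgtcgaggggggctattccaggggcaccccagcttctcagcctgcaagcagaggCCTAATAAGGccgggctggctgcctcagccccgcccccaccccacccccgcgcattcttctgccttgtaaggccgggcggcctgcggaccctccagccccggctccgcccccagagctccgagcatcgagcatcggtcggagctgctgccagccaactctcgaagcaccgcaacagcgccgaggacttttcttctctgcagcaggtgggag
On either strand, a CArG box was present in 3 of 22 promoter windows of the contractile list (13.6%), those of Myl9, Cnn2 and Myl6, and in 179 of 13391 windows of all measured genes (1.34%). Windows were found for 19 of the 22 genes. Over all genes higher in MEFs the share was 2.21%, and over those lower in MEFs 1.06%. A match in such a window is a description of its letters.

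Growth factor and secreted signal genes gave some of the largest differences. Igf2 was 211-fold higher in MEFs than in the mean of the 2i arrays, and its other probe set was higher too. Dkk2, a secreted regulator of Wnt signalling, had 10.32 in MEFs, 2.78 and 2.89 in the 2i iPSCs, 3.07 and 3.21 in the partial iPSCs and 2.89 and 2.51 in the ESCs. The platelet-derived growth factor gene Pdgfd had 9.30 in MEFs, 3.01 and 2.98 in the 2i iPSCs, 2.98 and 4.96 in the partial iPSCs and 3.34 and 3.10 in the ESCs, and Wnt5a 9.91 in MEFs, 4.39 and 5.14 in the 2i iPSCs, 4.54 and 5.29 in the partial iPSCs and 3.79 and 3.22 in the ESCs. In Igf2, Dkk2 and Pdgfd both 2i arrays were within 1 log2 of both ESC arrays, and in Wnt5a they were somewhat above them. Of 30 measured secreted signals and cytokines, 19 were higher in MEFs (63.3%, against 12.7% of all genes) and 3 lower (10%, against 16.6%). The IGF axis was less one-sided. Of 13 measured members, 5 were higher, 2 lower and 6 within 1. Pappa, a protease that cleaves IGF-binding proteins, had 7.89 in MEFs and 3.92 and 4.03 in the 2i iPSCs. The RNA-binding protein gene Igf2bp1 was lower in MEFs, at 8.93 in MEFs and 11.27 and 11.41 in the 2i iPSCs.

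Positional genes followed the same direction at lower levels. Of 39 Hox genes listed, 25 were measured, 8 were dim and 6 had no probe set assigned to them alone. Of the 25, 15 were higher in MEFs (60%, against 12.7% of all genes), none was lower, 6 lay within 1 and 4 passed 1 against one array. In the 2i arrays 12 of the 15 were near ESC level (80%, against 75.2% of all genes higher in MEFs). Hoxc8 had 9.49 in MEFs, 3.28 and 3.53 in the 2i iPSCs, 3.02 and 2.89 in the partial iPSCs and 3.07 and 2.92 in the ESCs, Hoxc10 had 9.24 in MEFs, 4.31 and 3.99 in the 2i iPSCs, 4.21 and 3.94 in the partial iPSCs and 3.82 and 3.48 in the ESCs and Hoxa11 had 8.83 in MEFs, 4.37 and 4.73 in the 2i iPSCs, 4.03 and 4.47 in the partial iPSCs and 4.55 and 4.49 in the ESCs. These 3 genes were low in 2i iPSCs, partial iPSCs and ESCs. Hoxb2 was the one Hox gene kept, at 8.24 in MEFs, 7.37 and 7.39 in the 2i iPSCs, 6.41 and 6.16 in the partial iPSCs and 5.90 and 5.89 in the ESCs. Hoxa9, singled out after its values were seen, had 9.35 in MEFs, 4.89 and 6.03 in the 2i iPSCs, 11.30 and 11.07 in the partial iPSCs and 4.63 and 3.49 in the ESCs. Its highest values were in the partial iPSCs, above MEFs, and the 2i arrays were lower than both. Among 25 Hox genes, 9 were higher in partial iPSCs than in ESCs and none lower (limma, adjusted p under 0.05). Over all genes the shares were 9.48% and 5.95%. The 2i arrays were at least 1 log2 below the partial array of the same clone, in both clones, for 7 Hox genes (28.0%, against 4.76% of all genes) and above it for 1.

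**Figure D3:**
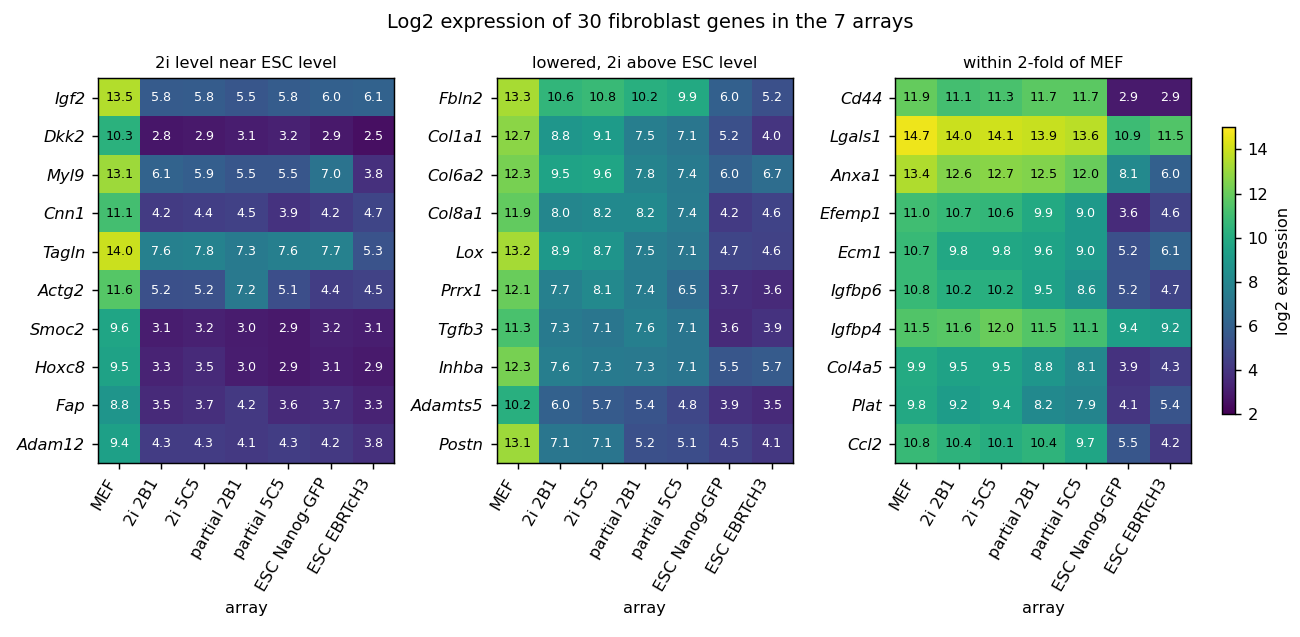
Log2 expression (colour scale, value in each cell) of 30 fibroblast genes in rows across the 7 arrays in columns, in 3 panels. Left, genes whose 2i level is near ESC level, such as Igf2; middle, genes lowered in 2i iPSCs but above ESC level, such as Lox; right, genes within 2-fold of MEFs in both 2i arrays, such as Cd44.

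The collagen genes were lowered but mostly still above ESC level. All 9 measured fibrillar collagens were higher in MEFs (against 12.7% of all genes), and Col11a2 and Col24a1 were dim. Col1a1, the main chain of type I collagen, had log2 values of 12.73 in MEFs, 8.81 and 9.12 in the 2i iPSCs, 7.55 and 7.11 in the partial iPSCs and 5.20 and 4.01 in the ESCs. MEFs were 13.5-fold above the mean of the 2i arrays, and each step from MEFs over 2i and partial iPSCs to ESCs was lower, with no overlap between groups. Col11a1 had 9.37 in MEFs, 5.17 and 5.31 in the 2i iPSCs, 5.99 and 4.85 in the partial iPSCs and 4.31 and 4.62 in the ESCs, and Col5a3 had 9.05 in MEFs, 5.72 and 5.55 in the 2i iPSCs, 5.53 and 5.50 in the partial iPSCs and 6.29 and 5.81 in the ESCs, both among the 4 fibrillar genes near ESC level in the 2i arrays. Of 14 other collagens, 10 were higher in MEFs (71.4%, against 12.7% of all genes), 3 lay within 1 and Col13a1 was lower. Col6a2, a chain of the microfibrillar type VI collagen, had 12.32 in MEFs, 9.52 and 9.62 in the 2i iPSCs, 7.81 and 7.36 in the partial iPSCs and 6.01 and 6.65 in the ESCs, and Col8a1 had 11.86 in MEFs, 7.98 and 8.15 in the 2i iPSCs, 8.19 and 7.42 in the partial iPSCs and 4.22 and 4.60 in the ESCs. Col12a1 had 9.31 in MEFs, 5.24 and 5.18 in the 2i iPSCs, 5.31 and 5.04 in the partial iPSCs and 5.03 and 5.14 in the ESCs, near ESC level in 2i iPSCs on this probe set. Its other bright probe set had 11.41 in MEFs, 6.31 and 5.94 in the 2i iPSCs, 5.18 and 4.62 in the partial iPSCs and 3.34 and 3.36 in the ESCs, with both 2i arrays above both ESC arrays, so where Col12a1 stands against ESCs depends on the probe set. The basement membrane chains Col4a5, at 9.94 in MEFs and 9.50 and 9.51 in the 2i iPSCs, and Col18a1, at 8.70 in MEFs and 8.45 and 9.30 in the 2i iPSCs, were the 2 kept collagens. Col4a5 was low in the ESCs, at 3.91 and 4.32. Col18a1 was highest in the ESCs, at 10.51 and 10.82, with 9.27 and 9.81 in the partial iPSCs, so its 2i level was below ESC level.

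Against their own partial clone, several collagens were higher in the 2i iPSCs. At least 1 log2 higher in both clones were 4 of 9 fibrillar collagens (44.4%) and 5 of 14 other collagens (35.7%), against 6.99% of all genes, and none was lower in both. The median difference, 2i minus partial, over the fibrillar collagens was 0.98 in 2B1 and 1.76 in 5C5. The same holds for Lox, at 8.91 and 8.71 in the 2i iPSCs and 7.51 and 7.15 in the partial iPSCs. Over all fibroblast lists, 41 of 268 genes were higher in both 2i arrays than in the partial array of their clone (15.3%) and 21 were lower (7.84%). This is a count over 1 array per clone and state, with no test.

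Genes that process collagen went with it. Of 16 measured, 13 were higher in MEFs (81.25%, against 12.7% of all genes) and 3 lay within 1. Lox (lysyl oxidase), which cross-links collagen and elastin, had log2 values of 13.23 in MEFs, 8.91 and 8.71 in the 2i iPSCs, 7.51 and 7.15 in the partial iPSCs and 4.70 and 4.59 in the ESCs. MEFs were 21.4-fold above the 2i mean, while partial iPSCs exceeded ESCs by 2.68 ± 0.21 on the log2 scale (SE, n = 2 arrays each; limma, adjusted p = 0.00297). Its relative Loxl3 had 11.77 in MEFs, 8.37 and 8.43 in the 2i iPSCs, 9.01 and 7.47 in the partial iPSCs and 5.77 and 5.75 in the ESCs, and the prolyl hydroxylase subunit gene P4ha3 had 6.55 in MEFs, 3.77 and 3.76 in the 2i iPSCs, 3.53 and 3.26 in the partial iPSCs and 4.01 and 2.88 in the ESCs. Loxl4, at 8.52 in MEFs, 7.58 and 7.79 in the 2i iPSCs, 8.85 and 7.17 in the partial iPSCs and 4.69 and 4.41 in the ESCs, Plod1, at 9.25 in MEFs and 8.84 and 8.70 in the 2i iPSCs, and Pcolce2, at 9.51 in MEFs and 9.10 and 9.49 in the 2i iPSCs, were kept. In the ESCs Plod1 had 8.18 and 7.38 and Pcolce2 had 9.49 and 9.98, so Pcolce2 was not above ESC level.

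Among 30 measured matrix glycoproteins and proteoglycans, 22 were higher in MEFs (73.3%, against 12.7% of all genes), 1 was lower (3.33%, against 16.6%), 6 lay within 1 and 4 of these 6 were kept. Smoc2, a calcium-binding matrix protein, had 9.65 in MEFs, 3.05 and 3.17 in the 2i iPSCs, 2.97 and 2.89 in the partial iPSCs and 3.17 and 3.10 in the ESCs. Postn (periostin), a matrix protein of fibroblasts, had 13.11 in MEFs, 7.09 and 7.06 in the 2i iPSCs, 5.16 and 5.06 in the partial iPSCs and 4.53 and 4.10 in the ESCs, and thrombospondin 2 (Thbs2) had 11.59 in MEFs, 5.61 and 5.62 in the 2i iPSCs, 4.97 and 5.28 in the partial iPSCs and 4.51 and 4.71 in the ESCs. Smoc2 was low in all cells other than MEFs, whereas Postn in the 2i arrays lay above both the partial iPSC and the ESC arrays. Fbln2 was 6.2-fold higher in MEFs and 4.44 ± 0.33 on the log2 scale (SE, n = 2 arrays each; limma, adjusted p = 0.00245) higher in partial iPSCs than in ESCs. The kept genes were Fn1 (fibronectin), at 13.39 in MEFs, 12.51 and 12.68 in the 2i iPSCs, 12.55 and 13.27 in the partial iPSCs and 11.88 and 12.85 in the ESCs, Efemp1, at 11.00 in MEFs, 10.70 and 10.61 in the 2i iPSCs, 9.89 and 9.01 in the partial iPSCs and 3.58 and 4.56 in the ESCs, Ecm1, at 10.74 in MEFs, 9.81 and 9.75 in the 2i iPSCs, 9.56 and 8.98 in the partial iPSCs and 5.19 and 6.13 in the ESCs, and Fbln1. Fibronectin was high in every array, ESCs included, although its other bright probe set was higher in MEFs, while Efemp1 and Ecm1 were low in ESCs.

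Matrix proteases gave 12 genes higher in MEFs of 19 measured (63.2%, against 12.7% of all genes), with 3 kept and Mmp9 lower. Ctsk (cathepsin K), a protease that degrades collagen, had 10.62 in MEFs, 5.28 and 5.21 in the 2i iPSCs, 5.59 and 5.38 in the partial iPSCs and 4.95 and 4.89 in the ESCs. The membrane protease gene Adam12 had 9.41 in MEFs, 4.32 and 4.33 in the 2i iPSCs, 4.15 and 4.35 in the partial iPSCs and 4.17 and 3.81 in the ESCs, and Adamts5, which cleaves aggrecan, had 10.21 in MEFs, 6.03 and 5.74 in the 2i iPSCs, 5.36 and 4.77 in the partial iPSCs and 3.87 and 3.53 in the ESCs. Ctsk and Adam12 were near ESC level in the 2i arrays and Adamts5 above it on its brightest probe set but not on every other bright one. Kept were Plat (tissue plasminogen activator), at 9.85 in MEFs, 9.19 and 9.42 in the 2i iPSCs, 8.19 and 7.88 in the partial iPSCs and 4.07 and 5.37 in the ESCs, Mmp3, at 8.08 in MEFs, 8.03 and 7.66 in the 2i iPSCs, 9.15 and 8.60 in the partial iPSCs and 4.27 and 3.66 in the ESCs, and Mmp11, at 8.83 in MEFs and 8.74 and 8.42 in the 2i iPSCs. Plat and Mmp3 were lowest in ESCs, and the other bright probe set of Plat was higher in MEFs. Mmp11 had 7.43 and 7.34 in the partial iPSCs and 8.24 and 8.61 in the ESCs, near its level in the 2i iPSCs.

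Mesenchymal transcription factors were mostly higher in MEFs. Of 40 measured, 30 were higher in MEFs (75%, against 12.7% of all genes), 7 lay within 1, 3 passed 1 against one array and none was lower (16.6% of all genes). Prrx1, a homeobox factor of limb and craniofacial mesenchyme, had 12.05 in MEFs, 7.69 and 8.14 in the 2i iPSCs, 7.44 and 6.53 in the partial iPSCs and 3.71 and 3.57 in the ESCs. It was 17.6-fold above the 2i mean in MEFs, and the 2i arrays were in turn far above the ESC arrays. Ebf2 had 8.14 in MEFs, 4.45 and 4.14 in the 2i iPSCs, 4.15 and 4.04 in the partial iPSCs and 3.96 and 3.84 in the ESCs and Meox2 had 6.12 in MEFs, 2.71 and 2.65 in the 2i iPSCs, 2.65 and 2.79 in the partial iPSCs and 2.63 and 2.82 in the ESCs, both low in every array but MEF. In 16 of the 30 genes both 2i arrays were at least 1 above both ESC arrays (53.3%, against 20.3% of all genes higher in MEFs). Zeb1, a repressor of epithelial genes, was kept at 10.57 in MEFs, 9.89 and 9.86 in the 2i iPSCs, 10.63 and 8.68 in the partial iPSCs and 9.79 and 8.52 in the ESCs, although 2 of its other probe sets were higher in MEFs.

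Surface and cytoskeletal genes of mesenchyme held several genes kept at a high level. Of 27 measured, 17 were higher in MEFs (63.0%, against 12.7% of all genes), 4 lay within 1, 5 passed 1 against one array and Vcam1 was lower. Fap, a surface protease of activated fibroblasts, had 8.78 in MEFs, 3.53 and 3.73 in the 2i iPSCs, 4.17 and 3.55 in the partial iPSCs and 3.66 and 3.31 in the ESCs, Itgbl1 had 7.85 in MEFs, 3.17 and 2.77 in the 2i iPSCs, 2.96 and 3.22 in the partial iPSCs and 3.09 and 2.94 in the ESCs, and Pdgfrb, a receptor of platelet-derived growth factor, had 12.22 in MEFs, 8.30 and 7.59 in the 2i iPSCs, 6.27 and 5.85 in the partial iPSCs and 6.36 and 5.18 in the ESCs. Fap and Itgbl1 were near ESC level in the 2i arrays. Cd44, a receptor for hyaluronan, had 11.93 in MEFs, 11.12 and 11.27 in the 2i iPSCs, 11.74 and 11.72 in the partial iPSCs and 2.93 and 2.92 in the ESCs. MEFs were 1.66-fold above the 2i mean, against a gap to the ESC arrays, and partial iPSCs exceeded ESCs by 8.81 ± 0.18 on the log2 scale (SE, n = 2 arrays each; limma, adjusted p = 0.000261). Lgals1 (galectin 1) had 14.65 in MEFs, 13.97 and 14.08 in the 2i iPSCs, 13.90 and 13.65 in the partial iPSCs and 10.91 and 11.46 in the ESCs, and Anxa1 (annexin A1) had 13.44 in MEFs, 12.59 and 12.69 in the 2i iPSCs, 12.52 and 12.04 in the partial iPSCs and 8.14 and 5.99 in the ESCs. Of the other bright probe sets, 2 of Cd44 and 1 of Anxa1 were more than 2-fold higher in MEFs, so how far these genes were kept depends on the probe set. All 3 genes were high in the partial iPSCs as well. Of the 27 genes, 15 were higher in 2i iPSCs than in ESCs and 16 in partial iPSCs (limma, adjusted p under 0.05). Over all genes the shares were 3.56% and 9.48%.

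Of 23 measured genes of TGF-beta, activin and YAP responses, 13 were higher in MEFs (56.5%, against 12.7% of all genes), 7 lay within 1, all 7 of them kept, and none was lower (16.6% of all genes). Inhba, a subunit of activin, had 12.32 in MEFs, 7.57 and 7.30 in the 2i iPSCs, 7.25 and 7.06 in the partial iPSCs and 5.45 and 5.72 in the ESCs. Ltbp2, a matrix protein related to the latent TGF-beta binding proteins, had 10.51 in MEFs, 5.68 and 5.66 in the 2i iPSCs, 5.01 and 4.31 in the partial iPSCs and 4.01 and 4.18 in the ESCs, and the ligand Tgfb3 had 11.25 in MEFs, 7.30 and 7.10 in the 2i iPSCs, 7.61 and 7.06 in the partial iPSCs and 3.55 and 3.90 in the ESCs. The kept genes were led by Tead1, the DNA-binding partner of YAP, at 11.64 in MEFs, 10.83 and 11.15 in the 2i iPSCs, 10.90 and 11.37 in the partial iPSCs and 10.75 and 11.02 in the ESCs, Amotl2, at 10.81 in MEFs and 10.04 and 10.31 in the 2i iPSCs, and Skil, at 10.39 in MEFs and 10.05 and 10.40 in the 2i iPSCs. Tead1, Amotl2 and Skil were at a like level in ESCs, with Amotl2 at 10.08 and 10.34 and Skil at 10.32 and 10.70. One other probe set of Skil was higher in MEFs.

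Over all 12 fibroblast lists, 203 members were in the top 25% of values in MEFs (at or above 8.06). Of these, 149 were higher in MEFs than in both 2i arrays, 33 were kept within 1 of both, 5 were lower and 16 passed 1 against one array. Over all genes at that level, 4622 of 6983 were kept (66.2%). Of the 33 kept genes, 16 had both 2i arrays at least 1 log2 above both ESC arrays, against 2.94% of all kept genes. In partial iPSCs 15 of the 33 were higher and 2 lower than in ESCs (limma, adjusted p under 0.05), where the shares over all measured genes were 9.48% and 5.95%. Secreted factors among the kept genes were Ccl2, a chemokine for monocytes, at 10.75 in MEFs, 10.43 and 10.10 in the 2i iPSCs, 10.43 and 9.66 in the partial iPSCs and 5.47 and 4.18 in the ESCs, Kitl, the ligand of Kit, at 9.48 in MEFs, 8.93 and 9.41 in the 2i iPSCs, 8.45 and 7.78 in the partial iPSCs and 6.18 and 6.75 in the ESCs, and Vegfc, at 8.35 in MEFs and 8.10 and 8.02 in the 2i iPSCs. In the IGF axis Igfbp4, at 11.49 in MEFs, 11.62 and 12.04 in the 2i iPSCs, 11.51 and 11.14 in the partial iPSCs and 9.41 and 9.17 in the ESCs, Igfbp6, at 10.75 in MEFs, 10.22 and 10.18 in the 2i iPSCs, 9.46 and 8.62 in the partial iPSCs and 5.20 and 4.67 in the ESCs, and the receptor Igf2r, at 11.23 in MEFs and 10.54 and 10.33 in the 2i iPSCs, were kept. The word kept compares MEFs with the 2i arrays only. Igf2r had 8.76 and 9.18 in the partial iPSCs and 9.06 and 9.47 in the ESCs. Vegfc had 6.59 and 7.66 in the partial iPSCs and 8.50 and 8.24 in the ESCs. Both genes were thus lower in the partial iPSCs than in MEFs and 2i iPSCs, and Vegfc was at ESC level in the 2i iPSCs.

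**Figure D4:**
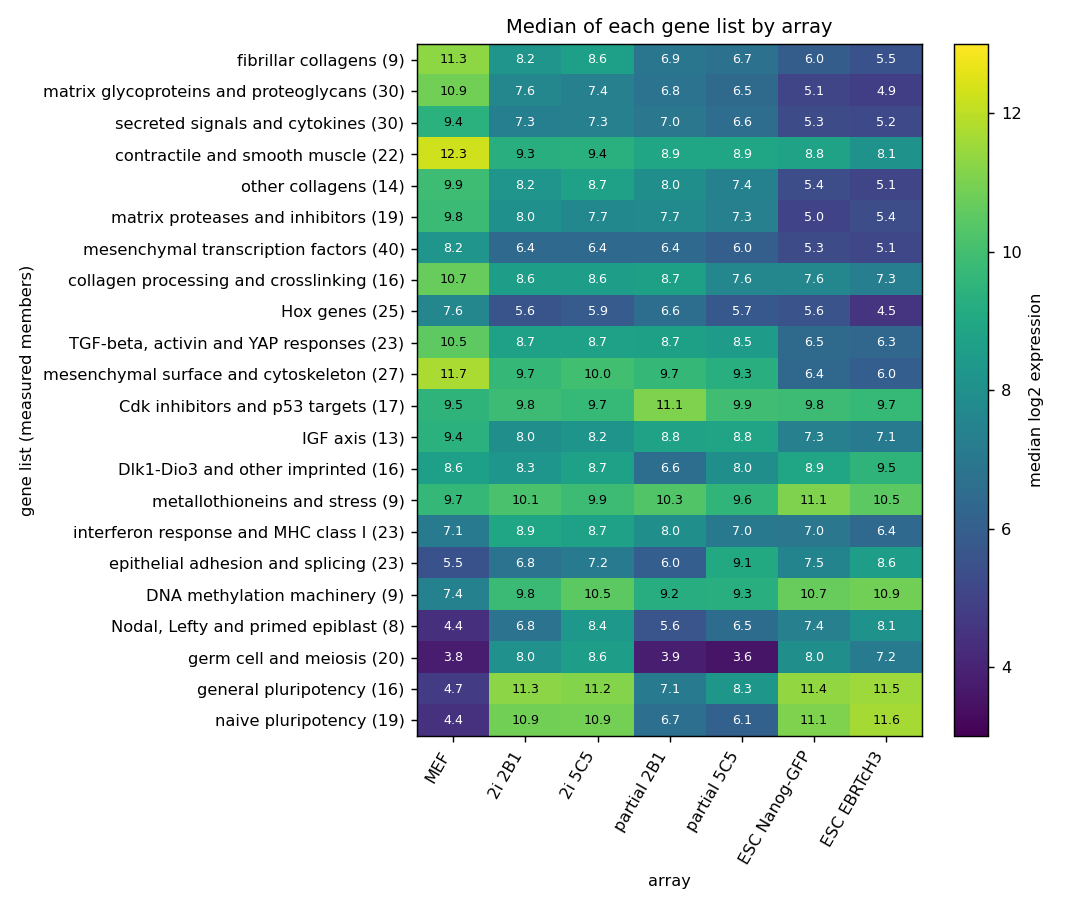
Median log2 expression over the measured members (colour scale, value in each cell) of 22 gene lists in rows, in each of the 7 arrays in columns. Each of the 12 fibroblast lists is highest in MEFs, and the naive and general pluripotency lists are high in the 2i iPSCs and ESCs and lowest in MEFs.

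In the comparison of 2i iPSCs with ESCs, read for the whole lists, 463 of all genes were higher in 2i iPSCs (3.56%) and 21 lower (0.162%) (limma, adjusted p under 0.05). Of the 268 fibroblast list genes, 85 were higher (31.7%) and none was lower, with a median difference of 0.999 on the log2 scale. In the same fit 100 were higher (37.3%) and 9 lower in partial iPSCs than in ESCs. The calls for 2i iPSCs rest on having both clones: without the 2B1 array 1 fibroblast gene and without the 5C5 array 0 were called, while over all genes 1 and 0 were called and 823 without the Nanog-GFP ESC array. With the 5C5 array left out 1083 genes had an unadjusted p under 0.05. The partial iPSC count in these lists lay between 76 and 112 whichever array was left out. The comparisons share the ESC arrays.

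On the side lower in MEFs, pluripotency and germ cell genes led. Of 19 measured naive pluripotency genes, 18 were lower in MEFs, and Klf4 passed 1 against one array only. Of 16 general pluripotency genes, 15 were lower, and of 20 germ cell and meiosis genes all 20 were, against 16.6% of all genes. Sox2 had log2 values of 5.08 in MEFs, 12.71 and 12.73 in the 2i iPSCs, 4.67 and 3.85 in the partial iPSCs and 12.66 and 12.91 in the ESCs, and Pou5f1 (Oct4) had 4.23 in MEFs, 11.95 and 11.72 in the 2i iPSCs, 13.25 and 13.16 in the partial iPSCs and 12.42 and 12.27 in the ESCs. The 2i iPSCs were 199-fold and 194-fold above MEFs in these genes, folds of the measured values whose MEF side was under the table median of 5.51. Sox2 was low in the partial iPSCs, while Pou5f1 was higher there than in ESCs by 0.86 ± 0.19 on the log2 scale (SE, n = 2 arrays each; limma, adjusted p = 0.042). Zfp42 was near the bottom of the scale in MEFs, so no fold is given for it. The median difference of the naive list, 2i minus ESC, was -0.57 on the log2 scale.

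Further genes among the 15 largest on this side were Dppa5a, at 5.73 in MEFs, 14.06 and 14.01 in the 2i iPSCs, 6.50 and 6.10 in the partial iPSCs and 14.36 and 14.21 in the ESCs, Fbxo15, at 4.37 in MEFs, 12.25 and 12.43 in the 2i iPSCs, 11.79 and 11.88 in the partial iPSCs and 12.30 and 12.11 in the ESCs, and the growth factor gene Fgf4, at 3.05 in MEFs, 10.35 and 10.82 in the 2i iPSCs, 9.41 and 10.45 in the partial iPSCs and 11.61 and 10.65 in the ESCs. Tdgf1 (Cripto), a co-receptor of Nodal, had 3.74 in MEFs, 12.50 and 12.47 in the 2i iPSCs, 11.73 and 13.34 in the partial iPSCs and 12.69 and 12.67 in the ESCs, and the repressor gene Sall4 had 4.36 in MEFs, 12.10 and 12.24 in the 2i iPSCs, 8.87 and 9.07 in the partial iPSCs and 12.35 and 12.44 in the ESCs. Dppa5a was low in the partial iPSCs and in MEFs, while Fbxo15, Fgf4 and Tdgf1 were low in MEFs and already high in the partial iPSCs. Trap1a had 3.46 in MEFs, 12.41 and 12.20 in the 2i iPSCs, 4.73 and 4.05 in the partial iPSCs and 12.52 and 11.93 in the ESCs, and 1700013H16Rik had 2.50 in MEFs, 10.05 and 10.99 in the 2i iPSCs, 2.43 and 2.97 in the partial iPSCs and 9.49 and 2.65 in the ESCs. 1700013H16Rik was high in one ESC line and near background in the other.

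Germ cell genes, such as Mageb16 at 3.18 in MEFs, 10.31 and 10.54 in the 2i iPSCs, 3.11 and 2.62 in the partial iPSCs and 11.12 and 10.28 in the ESCs and Tex19.1 at 3.84 in MEFs, 10.21 and 10.41 in the 2i iPSCs, 3.77 and 3.52 in the partial iPSCs and 10.56 and 9.08 in the ESCs, were low in MEFs and partial iPSCs and high in 2i iPSCs. All 20 were at least 1 log2 higher in both 2i arrays than in the partial array of the clone, against 6.99% of all genes. DNA methylation genes were also lower in MEFs, 6 of 9, with Tet1, which oxidises methylcytosine, at 4.51 in MEFs, 12.07 and 11.70 in the 2i iPSCs, 9.33 and 9.90 in the partial iPSCs and 11.85 and 11.79 in the ESCs, and Dnmt3l, a cofactor of de novo methylation, at 5.14 in MEFs, 9.16 and 10.47 in the 2i iPSCs, 4.26 and 4.42 in the partial iPSCs and 10.67 and 12.12 in the ESCs. Epithelial genes gave 13 lower (56.5%, against 16.6% of all genes) and 2 higher in MEFs (8.70%, against 12.7%) of 23 measured. E-cadherin (Cdh1) had 2.79 in MEFs, 11.10 and 11.06 in the 2i iPSCs, 7.40 and 11.87 in the partial iPSCs and 11.20 and 11.69 in the ESCs, and Epcam had 4.61 in MEFs, 9.43 and 9.89 in the 2i iPSCs, 8.08 and 11.26 in the partial iPSCs and 10.29 and 11.37 in the ESCs. The partial clones differed from each other in both, 5C5 being higher. Krt18 and Krt19, keratin genes, were the 2 higher in MEFs. Of 8 measured Nodal, Lefty and primed epiblast genes 6 were lower in MEFs, Zic5 having 3.72 in MEFs and 9.60 and 9.19 in the 2i iPSCs, Otx2 2.89 in MEFs and 6.65 and 9.85 in the 2i iPSCs and Nodal 5.07 in MEFs and 8.80 and 9.72 in the 2i iPSCs.

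Interferon response and MHC class I genes did not follow the pluripotency pattern. Of 23 measured, 11 were lower in MEFs (47.8%, against 16.6% of all genes) and 1 was higher (4.35%, against 12.7%). A further 9 lay within 1 and 2 passed 1 against one array. Usp18, which removes the ubiquitin-like modifier ISG15, had log2 values of 5.48 in MEFs, 10.06 and 9.57 in the 2i iPSCs, 7.50 and 6.71 in the partial iPSCs and 3.86 and 3.18 in the ESCs. It was 20.3-fold higher in the 2i mean than in MEFs, and the 2i arrays were the highest of the 7. Oasl2, of the oligoadenylate synthetase family, had 4.10 in MEFs, 8.17 and 8.41 in the 2i iPSCs, 7.31 and 5.94 in the partial iPSCs and 3.28 and 3.37 in the ESCs, and Ifit1, an RNA-binding antiviral protein gene, had 5.47 in MEFs, 8.81 and 9.01 in the 2i iPSCs, 6.96 and 6.29 in the partial iPSCs and 3.25 and 3.00 in the ESCs. In all 3 genes the partial iPSCs lay between the 2i iPSCs and MEFs, and the ESCs were lowest. Of the 11 lower genes, 8 had both 2i arrays at least 1 log2 above both ESC arrays.

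In the fits against ESCs, 8 of the 23 were higher in partial iPSCs (9.48% of all genes) and 7 in 2i iPSCs (3.56% of all genes), and none was lower in either (limma, adjusted p under 0.05). Partial iPSCs exceeded ESCs in Usp18 by 3.59 ± 0.39 on the log2 scale (SE, n = 2 arrays each; limma, adjusted p = 0.00612) and in Ifit1 by 3.51 ± 0.29 on the log2 scale (SE, n = 2 arrays each; limma, adjusted p = 0.00302). Against the partial array of the clone, 4 of the 23 were higher in both 2i arrays (17.4%, against 6.99% of all genes) and none lower (4.76% of all genes). B2m, the light chain of MHC class I, was kept at 12.51 in MEFs, 12.84 and 12.81 in the 2i iPSCs, 12.93 and 12.61 in the partial iPSCs and 8.63 and 10.67 in the ESCs, as were Ifitm3, at 12.88 in MEFs and 12.72 and 12.80 in the 2i iPSCs, and Ifitm2, at 12.00 in MEFs and 11.56 and 11.76 in the 2i iPSCs.

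Promoter windows of Ifit1 and Ifit3 are shown because both genes lay lower in MEFs than in 2i iPSCs and hold letters of the interferon-stimulated response element, the site bound by the interferon-activated factor complex. The windows are chr19:34640639-34640938 and chr19:34583279-34583578, both on the plus strand of GRCm38.p6 (RefSeq), from 250 bases before to 50 after the start. Capitals mark TTTCNNTTTC, which in Ifit1 begins 104 and 85 bases before the start and in Ifit3 156 and 122 bases before it.
Ifit1: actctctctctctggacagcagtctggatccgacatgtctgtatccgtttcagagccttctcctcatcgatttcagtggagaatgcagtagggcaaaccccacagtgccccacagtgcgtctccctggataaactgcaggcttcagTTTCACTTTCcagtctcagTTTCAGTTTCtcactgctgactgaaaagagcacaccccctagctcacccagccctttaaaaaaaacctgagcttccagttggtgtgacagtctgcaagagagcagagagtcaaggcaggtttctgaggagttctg
Ifit3: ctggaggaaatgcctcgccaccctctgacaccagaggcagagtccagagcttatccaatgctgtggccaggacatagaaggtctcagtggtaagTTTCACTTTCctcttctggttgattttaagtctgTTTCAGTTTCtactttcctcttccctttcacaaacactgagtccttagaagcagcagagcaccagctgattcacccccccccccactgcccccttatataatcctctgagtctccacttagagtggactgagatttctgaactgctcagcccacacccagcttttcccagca
On either strand this motif was present in 9 of 25 windows of the list (36%), with windows for 21 of the 23 genes, and in 384 of 13391 windows of all measured genes (2.87%). Of the 12 windows found for 10 of the 11 genes lower in MEFs, 5 held it (41.7%), those of Bst2, Ifit1, Ifit3, Oas1a and Rsad2. Among the kept genes B2m, Ifitm2 and Ifitm3 held it too, so the letters were present on both sides. Over all genes lower in MEFs the share was 3.27%. Ifit3 itself had 7.07 in MEFs, 8.12 and 8.26 in the 2i iPSCs, 7.05 and 6.33 in the partial iPSCs and 5.06 and 4.53 in the ESCs.

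**Figure D5:**
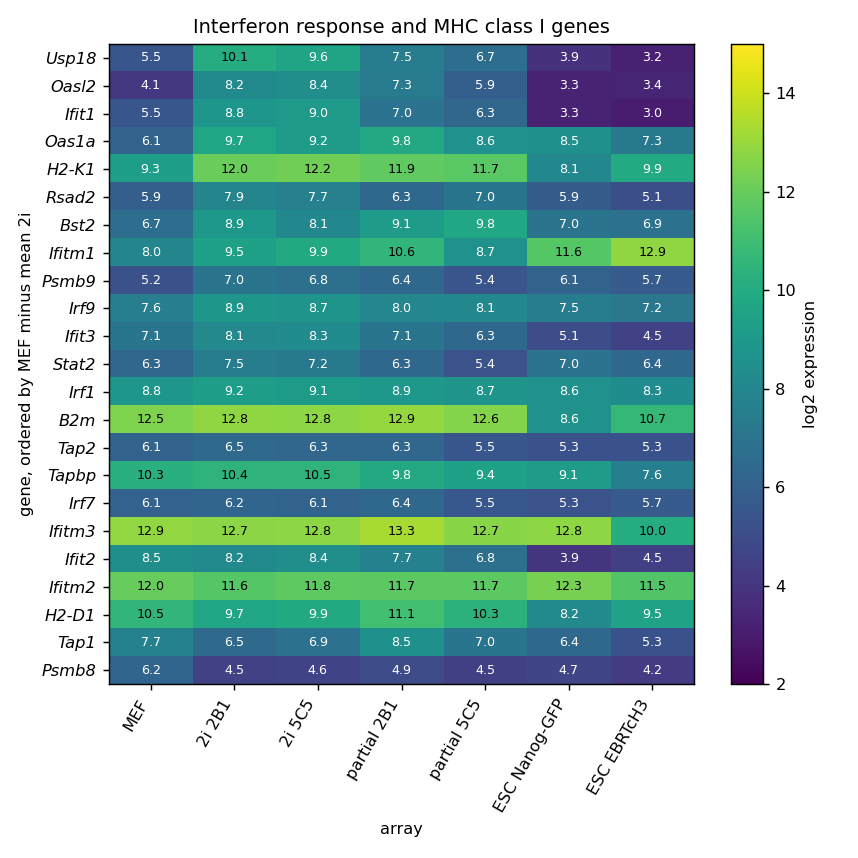
Log2 expression (colour scale, value in each cell) of the 23 measured interferon response and MHC class I genes in rows, ordered by the difference MEF minus the mean of the 2i arrays, across the 7 arrays in columns. Usp18, Oasl2 and Ifit1 at the top are highest in the 2i iPSCs, and most genes in the lower rows differ little between MEFs and 2i iPSCs.

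Cell cycle inhibitors, stress genes and imprinted genes made up the remaining lists. Of 17 measured Cdk inhibitors and p53 targets, 5 were higher in MEFs and 1 was lower. Of the 16 in the top 25% of values in MEFs, 6 were kept. Over all genes 12.7% were higher and 16.6% lower, and 66.2% of the genes in the top 25% of values in MEFs were kept. Cdkn1a (p21), which halts the cell cycle downstream of p53, had 13.12 in MEFs, 9.83 and 10.43 in the 2i iPSCs, 12.58 and 12.61 in the partial iPSCs and 10.86 and 10.28 in the ESCs, and Cdkn1c had 9.49 in MEFs, 6.35 and 6.48 in the 2i iPSCs, 6.57 and 4.93 in the partial iPSCs and 6.17 and 8.83 in the ESCs. Cdkn1a was nearly as high in the partial iPSCs as in MEFs. Gadd45a was lower in MEFs, at 8.48 in MEFs and 11.07 and 11.25 in the 2i iPSCs. Of 9 metallothionein and stress genes, all in the top 25% of values in MEFs, 7 were kept, near the share over all genes, with Mt1 at 13.08 in MEFs, 12.70 and 12.41 in the 2i iPSCs, 10.28 and 11.55 in the partial iPSCs and 11.65 and 12.83 in the ESCs and Mt2 at 12.65 in MEFs, 13.20 and 13.17 in the 2i iPSCs, 9.41 and 11.14 in the partial iPSCs and 12.55 and 13.35 in the ESCs. Both metallothioneins were lower in the partial iPSCs than in MEFs and in the 2i iPSCs. Another probe set of Mt1 was lower in MEFs.

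Of 16 measured imprinted genes, 6 were higher in MEFs (37.5%, against 12.7% of all genes) and 2 lower (12.5%, against 16.6%). Of the 11 in the top 25% of values in MEFs 5 were kept. Necdin (Ndn) had 12.05 in MEFs, 8.03 and 8.75 in the 2i iPSCs, 8.83 and 10.25 in the partial iPSCs and 8.87 and 8.50 in the ESCs. Phlda2 had 5.29 in MEFs, 8.43 and 8.10 in the 2i iPSCs, 5.31 and 9.47 in the partial iPSCs and 8.89 and 10.84 in the ESCs, and Zdbf2 had 7.46 in MEFs, 10.01 and 10.13 in the 2i iPSCs, 8.35 and 9.61 in the partial iPSCs and 9.80 and 10.07 in the ESCs, the 2 lower genes, a share no larger than over all genes. Mest was kept, at 8.87 in MEFs and 9.60 and 8.68 in the 2i iPSCs, and so was Cd81, at 12.90 in MEFs and 12.09 and 12.27 in the 2i iPSCs. Genes on the X chromosome, of which 442 were measured, were higher in MEFs in 14.03% (12.7% of all genes) and lower in MEFs in 24.2% (16.6% of all genes). Their median difference was -0.21, against -0.07 for autosomal genes. Xist, the transcript that coats the inactive X, had 5.20 in MEFs, 7.93 and 9.14 in the 2i iPSCs, 5.44 and 13.49 in the partial iPSCs and 8.42 and 9.03 in the ESCs on its brightest probe set. Its other bright probe sets had 3.03 in MEFs, 2.78 and 4.95 in the 2i iPSCs, 2.98 and 11.31 in the partial iPSCs and 3.44 and 3.53 in the ESCs, and 3.29 in MEFs, 3.06 and 3.73 in the 2i iPSCs, 3.27 and 9.95 in the partial iPSCs and 3.20 and 3.20 in the ESCs. On these only the partial array of 5C5 was high, and the 2i and ESC levels of the brightest probe set were not seen. On the same probe sets the MEFs, labelled as of mixed sex, stood near the male ESCs and near the partial array of the female clone 2B1. Which sexes the MEF array holds was not tested. The labelled sexes of the groups differ, and sex and cell state cannot be told apart here.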

How the data were processed

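Total RNA, prepared with TRIzol per the labels' protocols, was labelled as biotinylated cRNA and measured on Affymetrix mouse expression arrays, 1 array per sample. The authors deposited log2 probe set summaries made with RMA and the affy package, per the submitters' processing notes; no version is named in the labels. RMA subtracts background, quantile-normalizes the arrays and summarises each probe set, which compresses differences of dim genes. The deposited values fell into 2 blocks of 7 arrays with array means of 6.09 and of 5.87 to 5.88, taken as separately normalized. Only the first block was used here, and the 7 transduced arrays were left out.

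Probe sets were named from the platform's annotation in GEO, which can be old. Of 45101, 34945 had 1 gene, 932 several, 9160 none and 64 were controls; 34741 matched the RefSeq gene table (GRCm38.p6). For each of 18193 genes the probe set brightest on average over the 14 arrays was used. A gene was measured if at least 1 of the 7 arrays reached their median of 5.51, which left 12996. It was kept if it was at or above the 75th percentile (8.06) in MEFs and within 1 log2 of both 2i arrays.

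MEFs against 2i iPSCs were counted without a test. Partial and 2i iPSCs were each compared with ESCs in 1 limma fit of 6 arrays (limma 3.58.1, R 4.3.3; lmFit and eBayes, 3 residual and 2.24 prior degrees of freedom), two-sided, with Benjamini-Hochberg adjustment over all measured genes and calls at an adjusted p under 0.05. The fit was tested on simulated data. Nothing in the labels says that arrays were repeated within a clone or line. Named genes were the 15 largest differences on each side, up to 3 most different and 3 kept genes of each list, the 4 markers and the lists of other cell types; others are said to be singled out. Members and the 34 lists (619 symbols) were chosen with earlier results of these data known. Promoter windows came from RefSeq for 3014 of the 3796 genes that differed. Alternatives covered the fold threshold, scaling, filter, probe set choice, the fit and each array left out.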

Additional observations from a re-analysis of the deposited data

How the results depend on the processing

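Under a fold threshold of 2 on the log2 scale, 1304 genes differed between MEFs and 2i iPSCs (585 higher, 719 lower). With every probe set counted by itself, 6452 did (2899 higher, 3553 lower). Under 2 centrings, quantile normalization and 3 other filters, the total stayed between 3579 and 3921. It was 4342 without the 2B1 array and 4419 without the 5C5 array. Calls of partial iPSCs against ESCs numbered 2005, 764 with the 4 compared arrays alone and between 764 and 2387 without 1 array. Calls of 2i iPSCs against ESCs numbered 484 and between 0 and 823 without 1 array; where limma called 0, without the 5C5 array, 1083 had an unadjusted p under 0.05. With either 2i array left out, the lone remaining one was assumed to spread as the other groups do. The centring on measured genes was chosen after seeing the data. Among the single genes and lists, 1080 values stayed near those reported under the alternatives, 94 moved and none reversed. A count taken as staying near could still change. For example, 100 fibroblast list genes were called higher in partial iPSCs than in ESCs, and 76 with the 4 compared arrays alone, which was taken as near. No paired analysis was possible because the MEF group has 1 array and the clones of the iPSCs have no counterpart among the ESC lines, which covers every test reported; partial and 2i arrays do share clones, and that comparison is given as counts by clone, with no test run. The number of arrays limits the precision, and the cause of these shifts was not tested.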

Other observations

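Mycn, singled out after its values were seen, encodes a Myc family transcription factor and had log2 values of 5.97 in MEFs, 12.18 and 12.62 in the 2i iPSCs, 14.29 and 14.26 in the partial iPSCs and 6.13 and 6.05 in the ESCs. It was high in both states of both clones and low in MEFs and in both ESC lines.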
